A study of Mus musculus with 6 samples.

Results

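The Schlafen genes form a family of growth and antiviral regulators that lies in 1 cluster on mouse chromosome 11. Its 7 members Slfn1, Slfn2, Slfn3, Slfn4, Slfn5, Slfn8 and Slfn9 were taken by symbol from a table of 43432 gene IDs, and all 7 were present. Expression was read by RNA sequencing of medullary thymic epithelial cells, called mTEC here, from 4-week-old C57BL/6 mice. The genotypes were CopaE241K/+ (MUT, 3 libraries) and Copa+/+ (WT, 3 libraries). The Copa product is the alpha subunit of COPI, a coat that returns vesicles from the Golgi to the endoplasmic reticulum. E241K is the amino acid change named in the genotype label, and MUT mice are heterozygous for it. The series title names STING, a sensor adaptor upstream of interferon genes, and type I interferons in the thymus. Nothing in the labels ties a library to a single animal or to a pool. The p-values therefore measure the spread between these libraries, which may be partly technical.

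Schlafen proteins take their name from the German word for sleep, because overexpressed Slfn1 slowed the growth of T cells. Short members (Slfn1 and Slfn2) consist mainly of the conserved Schlafen core, intermediate members (Slfn3 and Slfn4) add a linker domain, and long members (Slfn5, Slfn8 and Slfn9) add a helicase-like domain. Type I interferons induce many family members in mouse cells, and several long Schlafen proteins of mammals bind or cut transfer RNA. mTEC are the thymic stromal cells that show tissue-restricted antigens to developing T cells.

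In these mTEC the levels of every Schlafen gene overlapped between the genotypes. Of the 7 members, 6 had enough counts to be tested and 0 passed the test (adjusted p under 0.05), against 0% of the 17172 genes tested. The adjusted p is that of edgeR's quasi-likelihood test with Benjamini-Hochberg adjustment over all tested genes, and it was 0.999875 for each of the 6. At an unadjusted p under 0.05 there were 0 members, against 3.48% of genes tested. At that level 1.62% of genes were higher and 1.85% lower in MUT. The MUT libraries all exceeded the WT libraries in 0 of 7 members, against 5.39% of genes tested. They all fell short of the WT libraries in 0 of 7, against 3.96%. DESeq2 called 0 of the 5 members to which it gave an adjusted p, against 0.621% of genes, and Slfn3 and Slfn4 were not among these 5. An unfiltered edgeR fit called 0 of 7, against 0.253%. DESeq2 with the library number as a further term called 1 of 6, Slfn4, which was lower in MUT, against 1.74% of genes. The fitted value was above 0 for Slfn1, Slfn2, Slfn5, Slfn8 and Slfn9 and below 0 for Slfn4, against 49.4% of genes above 0. The median log2 fold change over all genes tested was -0.01. What follows gives the values of each gene and how far they varied between libraries of the same genotype.

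The promoters are shown first, since type I and type III interferons act on many target genes through the interferon-stimulated response element (ISRE). Each window runs from 250 bases before to 50 bases after a transcription start, from RefSeq on GRCm38.p6, and all 7 members matched an entry, with 8 windows in all. The core GAAANNGAAA was searched on both strands, where it reads TTTCNNTTTC on the other strand. It was present in the windows of Slfn5, Slfn8 and Slfn9, the 3 long members, and in none of those of Slfn1, Slfn2, Slfn3 and Slfn4. Among the 27025 genes of the promoter table, 3.99% had a window holding the core. Among 38 genes of a list of interferon-stimulated genes that matched the table, 50% did. The core of the gamma-activated sequence, TTCNNNGAA, which reads the same on both strands, was present in 0 of the 7 members, against 9.55% of all genes. The cores do not overlap in any Schlafen window. Capitals mark the ISRE core, and Slfn4 is shown as the 1 intermediate member with enough counts to be tested.
Slfn5 (chr11:82951852-82952151, plus strand): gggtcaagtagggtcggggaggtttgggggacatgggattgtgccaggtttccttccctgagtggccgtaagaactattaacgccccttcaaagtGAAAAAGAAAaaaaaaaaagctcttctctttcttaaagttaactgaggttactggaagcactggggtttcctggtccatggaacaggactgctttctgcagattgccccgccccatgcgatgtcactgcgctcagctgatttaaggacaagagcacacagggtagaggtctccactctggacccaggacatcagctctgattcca
Slfn8 (chr11:83020761-83021060, minus strand): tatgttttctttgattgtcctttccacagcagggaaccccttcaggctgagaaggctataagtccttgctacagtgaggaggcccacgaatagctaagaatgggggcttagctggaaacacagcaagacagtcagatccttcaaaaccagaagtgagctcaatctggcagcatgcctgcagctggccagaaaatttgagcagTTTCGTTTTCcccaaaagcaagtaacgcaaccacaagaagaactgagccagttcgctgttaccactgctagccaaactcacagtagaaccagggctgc
Slfn9 (chr11:82991781-82992080, minus strand): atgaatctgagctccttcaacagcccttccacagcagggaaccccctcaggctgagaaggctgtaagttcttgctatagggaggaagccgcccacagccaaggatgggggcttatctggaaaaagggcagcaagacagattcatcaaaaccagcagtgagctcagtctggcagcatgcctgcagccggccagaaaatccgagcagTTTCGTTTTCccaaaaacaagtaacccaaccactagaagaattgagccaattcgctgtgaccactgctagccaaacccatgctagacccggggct
Slfn4 (chr11:83174936-83175235, plus strand): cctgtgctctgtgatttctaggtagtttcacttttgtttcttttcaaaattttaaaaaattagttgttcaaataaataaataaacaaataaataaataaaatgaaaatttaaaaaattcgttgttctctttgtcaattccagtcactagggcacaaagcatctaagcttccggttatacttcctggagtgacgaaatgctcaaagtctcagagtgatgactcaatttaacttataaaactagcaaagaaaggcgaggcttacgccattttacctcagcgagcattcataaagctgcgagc
The core starts 155 bases before the RefSeq start of Slfn5, 48 bases before the upstream Slfn8 start and 45 bases before the Slfn9 start. The whole Slfn5 window lies downstream of the start of the gene in the GENCODE M21 annotation, 82951349, which is used below. Slfn8 and Slfn9 hold the same 10 letters, TTTCGTTTTC. A second Slfn8 window, which begins downstream, holds the same match 136 bases before its own start. These matches describe letters in a window, and binding was not measured.

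The members lie side by side over 263.8 kb, between 82951349 and 83215154 of chromosome 11 (GENCODE M21, GRCm38). Slfn5, Slfn2, Slfn1, Slfn4 and Slfn3 are on the plus strand, and Slfn9 and Slfn8 on the minus strand beside the pseudogene Slfn10-ps. The longest annotated coding sequences encode 337 residues for Slfn1, 378 for Slfn2, 640 for Slfn3, 602 for Slfn4, 884 for Slfn5 and 910 for both Slfn8 and Slfn9. Coding sequences were 92.7% identical between Slfn8 and Slfn9 over 2730 aligned bases, and 92.2% identical between Slfn3 and Slfn4 over 1778. The short pair was less alike, with 71.7% identity between Slfn1 and Slfn2, and Slfn5 was 64.6% identical to Slfn8.

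**Figure D1:**
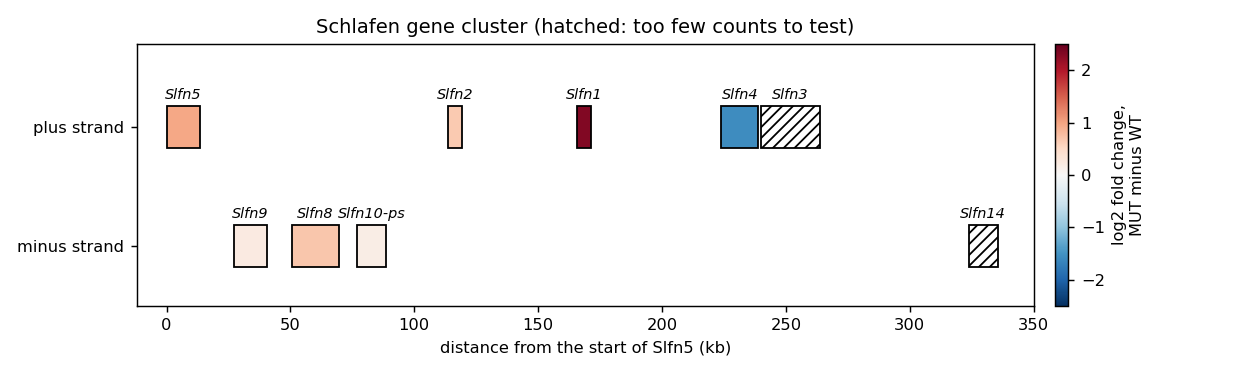
Positions of the Schlafen genes by distance in kb from the start of Slfn5 (horizontal axis) and strand (vertical axis), with colour giving the log2 fold change, MUT minus WT. Slfn1, at 2.31, ends at 171.3 kb and Slfn4, at -1.57, starts at 223.8 kb, with no other member between them. Their fitted values have opposite signs, and neither gene passed the test. Hatched genes had too few counts to test.

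Because near-identical copies can divide or lose reads, the transcripts were compared in stretches of 50 bases. The length is a choice made here, since no read length is given in the sources used here. Of the stretches in Slfn8 transcripts, 14.6% also occur in transcripts of another gene, and 9.297% occur in Slfn9. The share found in any other gene was 11.5% for Slfn9, 10.8% for Slfn4, 15.6% for Slfn3, 4.27% for Slfn2, 3.37% for Slfn5 and 0.606% for Slfn1. Most stretches of every member are thus its own at this length, while values of the pairs Slfn3 with Slfn4 and Slfn8 with Slfn9 remain uncertain where reads were shared. Slfn10-ps shares 11.8% of its stretches with Slfn8 and 13.5% with Slfn9.

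**Figure D2:**
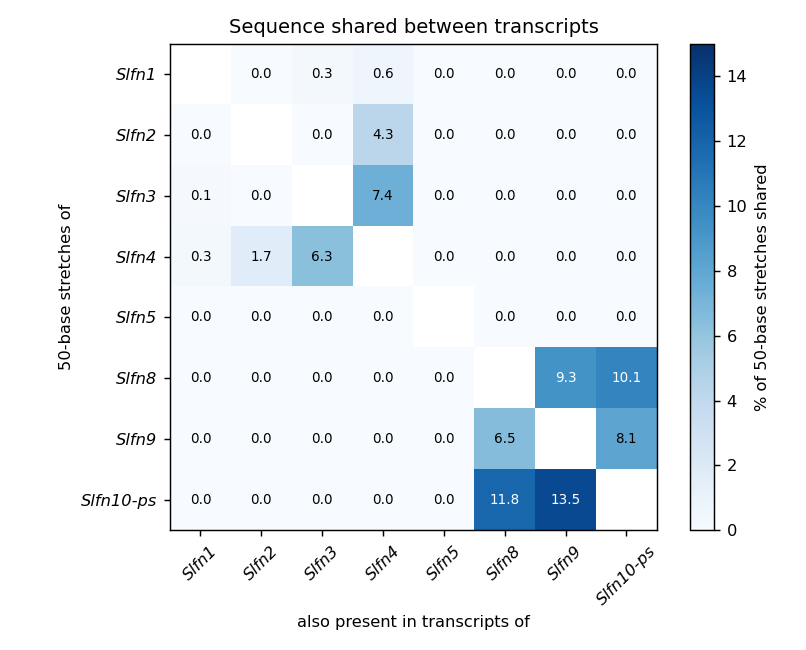
Percentage of the 50-base stretches in transcripts of each row gene that also occur in transcripts of the column gene. Sharing falls in blocks, with Slfn8, Slfn9 and Slfn10-ps between 6.52% and 13.5%, and Slfn3 and Slfn4 at 7.39% and 6.28%, while Slfn5 shares none with the other genes shown.

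Library depth ran from 19934513 to 23366238 counts. Levels below are in CPM, counts scaled to a common total with TMM factors, which match the bulk of genes between libraries. The spread between libraries was wide in general, with a median standard error of 1.03 for a log2 fold change. All 16 fixed markers of mTEC, among them Aire, Epcam and Foxn1, were counted, with a summed level of 10534 to 12138 CPM in MUT and 11109 to 13616 CPM in WT. H2-Aa alone gave 5935 to 7940 CPM in MUT and 5557 to 9619 CPM in WT. The other 15 mTEC markers summed to 4197 to 4662 CPM in MUT and 3997 to 6295 CPM in WT. Of these, Ccl21a had 4, 0 and 4 counts in MUT and 0 in each WT library. Markers of thymocytes and T cells summed to 308 to 1683 CPM in MUT and 484 to 1171 CPM in WT, and those of myeloid and dendritic cells to 721 to 1689 CPM in MUT and 884 to 1722 CPM in WT. B cell markers summed to 82.7 to 157 CPM in MUT and 149 to 172 CPM in WT. Of the B cell markers, Cr2 alone gave 34.3 to 61.7 CPM in MUT and 77.2 to 95.2 CPM in WT. Markers of endothelium and mesenchyme summed to 1301 to 1798 CPM in MUT and 1854 to 3110 CPM in WT. Most of that sum was Rgs5, with 1685, 1096 and 1383 CPM in MUT libraries 1, 2 and 3, against 2955, 1776 and 1626 CPM in WT libraries 1, 2 and 3. The other 11 markers of that list summed to 112 to 205 CPM in MUT and 131 to 228 CPM in WT, and 6 of the 12 had a fitted value above 0. None of the markers was at 0 in all libraries, and the part of these cells in the Schlafen values was not tested. In bulk samples fewer cells of a type and less RNA per cell cannot be told apart.

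Slfn1 (ENSMUSG00000078763, 83116849 to 83122670), the founding short member that slows T cell growth when overexpressed, had the largest fitted difference. It measured 12.3, 10.9 and 1.265 CPM in MUT libraries 1, 2 and 3, against 0, 4.33 and 0.572 CPM in WT libraries 1, 2 and 3. MUT libraries 1 and 2 lay above every WT library, while MUT library 3 lay below WT library 2. These levels rest on 261, 227 and 35 counts in MUT and 0, 92 and 13 counts in WT, where the count of 0 allows up to 3 counts, or 0.172 CPM, as a one-sided limit. The mean was 8.15 ± 6.01 CPM in MUT and 1.63 ± 2.35 CPM in WT (SD, n = 3 each, as for all means given). The log2 fold change was 2.31 (SE 1.93, 95% interval -1.91 to 6.53), and edgeR's quasi-likelihood test gave an unadjusted p of 0.256. The gene reached the minimum level for the test in 3 MUT and 2 WT libraries, so it entered the test with the help of MUT. Without WT library 2 the log2 fold change was 4.78. Summed T cell markers stood at 448, 1683 and 308 CPM in MUT libraries 1, 2 and 3 and at 517, 1171 and 484 CPM in WT libraries 1, 2 and 3. These markers were highest in MUT library 2 and WT library 2, while Slfn1 was highest in MUT library 1 and WT library 2.

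Slfn2 (ENSMUSG00000072620, 83065112 to 83070678) keeps T cells quiescent, and its loss of function in mice leads to loss of T cells. Slfn5 stood above it per length in MUT library 2, but Slfn2 had the highest mean per length in both genotypes. It measured 113, 23.1 and 20.5 CPM in MUT libraries 1, 2 and 3, against 26.3, 55.7 and 17.6 CPM in WT libraries 1, 2 and 3. A single MUT library stood above all others, and the remaining MUT values lay within the WT range. Its mean was 52.2 ± 52.7 CPM in MUT and 33.2 ± 19.98 CPM in WT. The log2 fold change of 0.65 (SE 0.76, 95% interval -1.01 to 2.32) rested on MUT library 1, and without that library it was -0.61. The unadjusted p with all libraries was 0.408 in edgeR. Without WT library 2 the fold change was 1.25, without MUT library 2 it was 1.01, without MUT library 3 it was 1.03, and without WT library 3 it was 0.35.

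Slfn4 (ENSMUSG00000000204, 83175186 to 83190216), an intermediate member induced by interferon in mouse myeloid cells, was the 1 tested member with a fitted value below 0. It measured 2.03, 23.3 and 0.181 CPM in MUT libraries 1, 2 and 3, against 34.8, 21.1 and 19.8 CPM in WT libraries 1, 2 and 3. The WT libraries were alike, and MUT libraries 1 and 3 lay far below them while MUT library 2 lay within their range. In counts these are 43, 486 and 5 in MUT and 606, 449 and 450 in WT. The 5 counts of MUT library 3 have an exact 95% Poisson interval of 1.62 to 11.7 counts, which covers counting error only. Slfn4 reached the minimum level for the test in 2 MUT and 3 WT libraries, so it entered the test with the help of WT. Mean levels were 8.497 ± 12.8 CPM in MUT and 25.3 ± 8.31 CPM in WT. The log2 fold change was -1.57 (SE 1.30, 95% interval -4.42 to 1.27; unadjusted p 0.251 in edgeR), and without MUT library 2 it was -4.51, where edgeR's quasi-likelihood test gave an unadjusted p of 0.00765 and, once adjusted, 0.999813. Without MUT library 3 it was -1.001. DESeq2 gave Slfn4 no p-value. limma-voom gave -3.69 with an adjusted p of 0.998. With the library number as a further term DESeq2 gave -3.76 with an adjusted p of 0.044, which passed the threshold, and edgeR gave -3.72 with an adjusted p of 0.999964. The labels do not state that libraries of equal number belong together, although their source names share an ending whose meaning is not given. Summed myeloid markers stood at 886, 1689 and 721 CPM in MUT libraries 1, 2 and 3 and at 884, 1722 and 969 CPM in WT libraries 1, 2 and 3. These markers were highest in MUT library 2 and WT library 2, while Slfn4 was highest in MUT library 2 and WT library 1, and their part in the Slfn4 values was not tested.

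Slfn3 (ENSMUSG00000018986, 83191330 to 83215154), the nearest relative of Slfn4, was counted too rarely to be tested. It had 0, 0 and 18 counts in MUT libraries 1, 2 and 3, against 1, 0 and 0 counts in WT libraries 1, 2 and 3. A single MUT library held nearly all of its counts, with an exact 95% Poisson interval of 10.7 to 28.4. Counted together, Slfn3 and Slfn4 had a log2 fold change of -1.54 (SE 1.16).

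Slfn5 (ENSMUSG00000054404, 82951349 to 82964840), an interferon-induced long member found in the nucleus, had the lowest unadjusted p of the family, at 0.105 in edgeR's quasi-likelihood test, and ranked 1373 of the genes tested. It measured 89.2, 122 and 33.0 CPM in MUT libraries 1, 2 and 3, against 43.0, 43.5 and 39.0 CPM in WT libraries 1, 2 and 3. MUT libraries 1 and 2 lay above all WT libraries, and MUT library 3 lay below all of them. The mean was 81.2 ± 44.8 CPM in MUT and 41.8 ± 2.49 CPM in WT. The WT libraries were close together, with a coefficient of variation (SD over mean) of 0.0596, and 0.723% of tested genes varied less in WT. In MUT the coefficient was 0.551, near the median of 0.587 over tested genes. The log2 fold change was 0.96 (SE 0.55, 95% interval -0.23 to 2.15). It was 1.33 without MUT library 3, with an unadjusted p of 0.0328 and an adjusted p of 0.999796 in edgeR, and 0.54 without MUT library 2. Its antisense partner Slfn5os, which overlaps it, had 2 counts in MUT library 3 and 0 in every other library. Few reads were thus assigned to Slfn5os, and how reads in the overlap were assigned is not given.

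Slfn8 (ENSMUSG00000035208, 83002158 to 83020810), a long member of the group related to human SLFN11, measured 31.4, 28.0 and 16.6 CPM in MUT libraries 1, 2 and 3, against 31.1, 4.19 and 11.6 CPM in WT libraries 1, 2 and 3. The MUT libraries were alike and lay within the WT range, apart from MUT library 1 at its upper edge. The mean was 25.4 ± 7.75 CPM in MUT and 15.6 ± 13.9 CPM in WT. The log2 fold change was 0.70 (SE 0.87, 95% interval -1.21 to 2.60; unadjusted p 0.441 in edgeR), and both WT extremes weighed on it, since it was 1.67 without WT library 1 and 0.24 without WT library 2.

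Slfn9 (ENSMUSG00000069793, 82978390 to 82991830), the near copy of Slfn8, measured 13.8, 0.335 and 17.1 CPM in MUT libraries 1, 2 and 3, against 2.18, 12.9 and 11.6 CPM in WT libraries 1, 2 and 3. Each genotype held a low library, MUT library 2 and WT library 1, and the other libraries were similar. MUT library 2 had 7 counts of Slfn9, with an exact 95% Poisson interval of 2.81 to 14.4, and 585 counts of Slfn8. WT library 1 had 38 and 542 counts of Slfn9 and Slfn8. Slfn9 reached the minimum level for the test in 2 MUT and 3 WT libraries. Mean levels of Slfn9 were 10.4 ± 8.88 CPM in MUT and 8.87 ± 5.83 CPM in WT. Its log2 fold change was 0.23 (SE 1.36, 95% interval -2.73 to 3.19; unadjusted p 0.868 in edgeR). The sign changed with single libraries, with -0.33 without MUT library 3, -0.24 without WT library 1 and -0.03 without MUT library 1. It was 0.79 without MUT library 2, 0.58 without WT library 2 and 0.47 without WT library 3, and -0.60 in limma-voom.

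**Figure D3:**
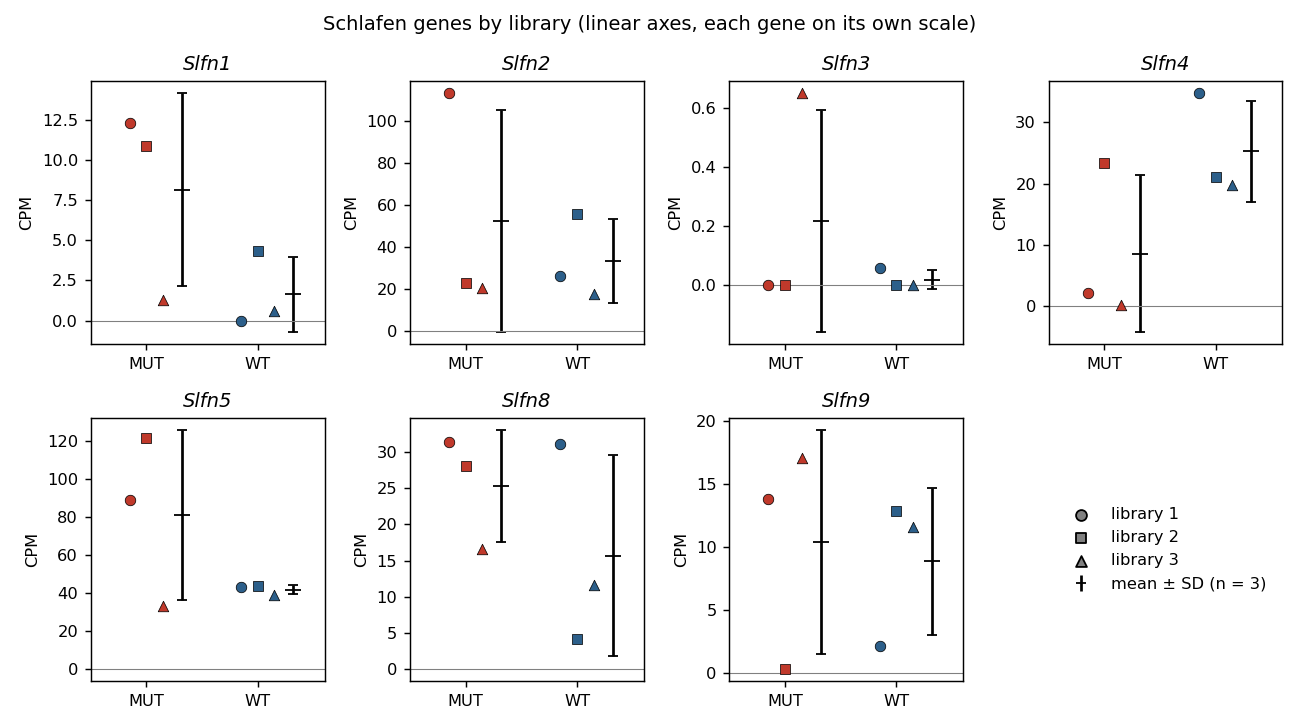
Level of each Schlafen gene in CPM (vertical axes, linear, 1 scale per gene) in the MUT libraries and the WT libraries, with symbols for library numbers and bars for mean ± SD. The genotypes overlap for every gene, and Slfn5 shows 3 close WT points between 39.0 and 43.5 CPM beside MUT points from 33.0 to 122 CPM.

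The pseudogene Slfn10-ps, from the list of other Schlafen-named genes, had low libraries in the same places as Slfn9. It measured 32.1, 1.20 and 12.5 CPM in MUT libraries 1, 2 and 3, against 6.55, 20.5 and 13.4 CPM in WT libraries 1, 2 and 3. Pearson's r between Slfn9 and Slfn10-ps over the 6 libraries was 0.94 on log2 CPM and Spearman's rho was 0.66, given as a description, since both genes share each library and parts of their sequence. Slfn10-ps had a log2 fold change of 0.18 (SE 1.12). With Slfn8, Slfn9 and Slfn10-ps counted as 1 feature the log2 fold change was 0.43 (SE 0.56), and edgeR's quasi-likelihood test gave an unadjusted p of 0.461. The other listed genes were rare: Slfn14, whose product is a ribosome-associated nuclease, had 0, 0 and 15 counts in MUT and 0, 0 and 14 in WT. Slfnl1, a Schlafen-like gene on chromosome 4, had 0, 9 and 6 counts in MUT and 0, 0 and 21 in WT. The neighbouring pseudogene Gm11427, named here because 4.02% of Slfn4 stretches occur in it, had 0, 0 and 3 counts in MUT and 0, 14 and 2 in WT.

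**Figure D4:**
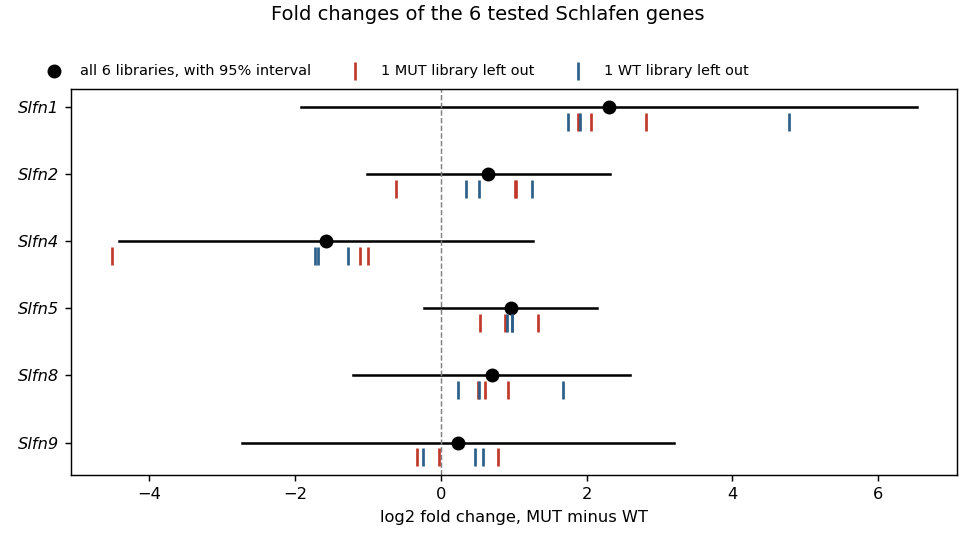
Log2 fold changes, MUT minus WT (horizontal axis), of the 6 tested Schlafen genes with 95% intervals as lines, and ticks for fits with 1 library left out. Every interval spans 0, and the ticks of Slfn2 and Slfn9 fall on both sides of it.

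Levels between members were compared in CPM per kilobase of merged exons, a scale that corrects for transcript length. In MUT, Slfn2 stood highest at 31.4 ± 31.7, followed by Slfn5 at 12.8 ± 7.08, Slfn8 at 6.197 ± 1.89, Slfn1 at 4.37 ± 3.22, Slfn4 at 2.14 ± 3.24, Slfn9 at 1.75 ± 1.49 and Slfn3 at 0.0636 ± 0.110 CPM per kilobase. The ranges of each neighbouring pair in this order overlapped in MUT. In WT the order was Slfn2 at 19.9 ± 12.0, Slfn5 at 6.61 ± 0.394, Slfn4 at 6.37 ± 2.10, Slfn8 at 3.83 ± 3.40, Slfn9 at 1.49 ± 0.977, Slfn1 at 0.877 ± 1.263 and Slfn3 at 0.00561 ± 0.00972 CPM per kilobase. Slfn2 was the 1 gene whose WT values lay apart from the next in order, and every other neighbouring pair overlapped in WT.

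The family as a whole summed to 99.2, 51.7 and 25.4 CPM per kilobase in MUT libraries 1, 2 and 3, against 39.4, 51.2 and 26.8 in WT libraries 1, 2 and 3. The sums overlapped, and on this scale those of the libraries numbered 2 and 3 were nearly equal between genotypes. Without the correction for length the sums were 262, 207 and 89.3 CPM in MUT libraries 1, 2 and 3, against 138, 142 and 100.1 CPM in WT libraries 1, 2 and 3. Slfn2 made up 68.5%, 26.8% and 48.5% of the sum in MUT libraries 1, 2 and 3, against 40.1%, 65.4% and 39.4% in WT libraries 1, 2 and 3. In MUT library 2 Slfn5 made up more than Slfn2, at 37.2%. Slfn4 made up 0.516%, 11.4% and 0.180% in MUT, against 22.3%, 10.4% and 18.6% in WT. Its share in MUT library 2 thus lay within the WT range, as its level did.

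**Figure D5:**
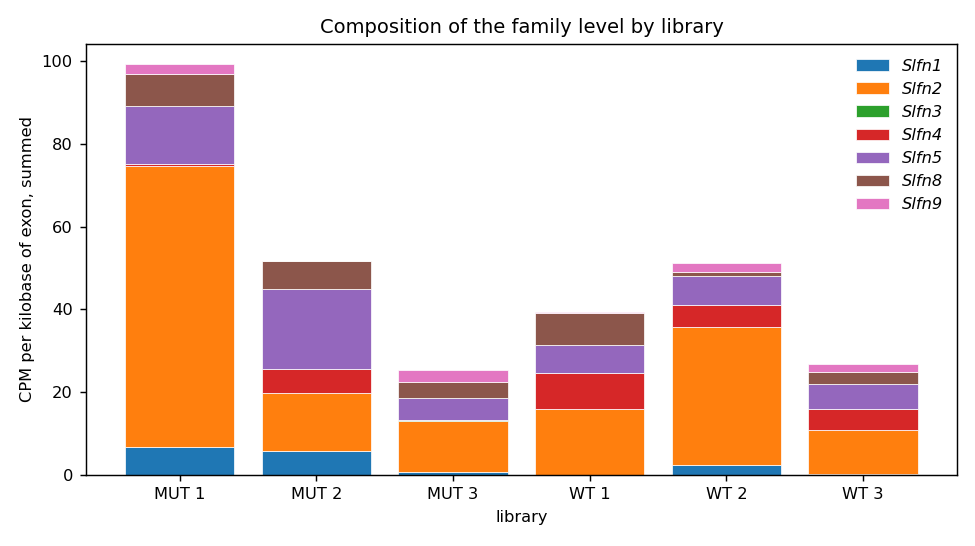
Summed level of the Schlafen genes in CPM per kilobase of exon (vertical axis) in each library, with 1 colour per gene. MUT library 1 reaches 99.2 because of Slfn2, MUT library 3 and WT library 3 are lowest at 25.4 and 26.8, and Slfn4 is prominent in all 3 WT libraries and MUT library 2.

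The spread within a genotype differed from gene to gene. In MUT the coefficient of variation was 1.51 for Slfn4, 1.01 for Slfn2, 0.853 for Slfn9, 0.737 for Slfn1, 0.551 for Slfn5 and 0.306 for Slfn8. In WT it was 1.44 for Slfn1, 0.889 for Slfn8, 0.657 for Slfn9, 0.602 for Slfn2, 0.329 for Slfn4 and 0.0596 for Slfn5. The medians over all tested genes were 0.587 in MUT and 0.695 in WT. Of tested genes, 95.6% varied less than Slfn4 in MUT and 19.2% varied less than it in WT. Whether the spreads of the genotypes differ was not tested.

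Interferon-stimulated genes outside the family were set beside it. All 50 listed genes were tested, and 0 passed edgeR's quasi-likelihood test over all genes in either direction. Fitted values were above 0 for 43 of them, against 49.4% of all genes tested, and centred on a median log2 fold change of 0.74, against -0.01 over all genes. The MUT libraries all exceeded the WT libraries in 19 of the 50, against 5.39% of all genes tested, and fell short of them in 0, against 3.96%. The antiviral gene Rsad2 measured 122, 208 and 224 CPM in MUT libraries 1, 2 and 3, against 22.9, 41.9 and 10.5 CPM in WT libraries 1, 2 and 3 (log2 fold change 2.88, SE 0.55). Oasl2 and Oasl1, oligoadenylate synthetase-like genes, had log2 fold changes of 1.23 (SE 0.26) and 1.89 (SE 0.45). In MUT library 3, Slfn1, Slfn2, Slfn4, Slfn5 and Slfn8 were lowest among MUT libraries, while Slfn3 and Slfn9 were highest. Rsad2 was also highest in that library, while Oasl2 and Oasl1 were lowest there among MUT libraries. Oasl2 measured 1795, 1767 and 1565 CPM and Oasl1 326, 417 and 214 CPM in MUT libraries 1, 2 and 3. The summed level of the 50 genes was 7905 CPM in MUT library 3, against 11088 and 10351 CPM in MUT libraries 1 and 2. The WT sums were 7929, 6077 and 4707 CPM. Whether the Schlafen genes differ from this list in their response was not tested.

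The 9 genes of the type I and type III interferon receptors, their kinases and the ISGF3 complex, the factor that binds the ISRE, had 0 calls in either direction, 5 fitted values above 0 and a median of 0.02 on the log2 scale. The kinase gene Tyk2 had a log2 fold change of 0.63 (SE 0.54) and the receptor gene Ifnar1 one of -0.48 (SE 0.51).

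By likeness of pattern, measured as Pearson's r of log2 CPM over the 6 libraries among genes of at least 5 CPM on average, Slfn5 was nearest to Ndufa5, Frg1 and Ap2m1, with r from 0.98 to 0.99. Slfn4 was nearest to Dstn, Mif and Plrg1, with r from 0.97 to 0.99, and Slfn2 to Acp6, Ddx23 and Tpgs1, with r from 0.98 to 0.997. Slfn1 was nearest to Zar1, Gm15890 and Ube2g1, Slfn8 to Nt5dc3, Dop1b and Zswim4, and Slfn9 to Cpne3, Tmem170b and Stc2, all with r near 0.99. About 12736 genes were compared for each member and the number above 0.9 ran from 38 for Slfn4 to 268 for Slfn1. These genes were picked as the highest of many over few libraries, and none of them is a Schlafen gene or on the interferon-stimulated list.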

How the data were processed

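The authors deposited raw, unnormalized read counts for Ensembl gene IDs in 6 libraries. Per the labels' protocols, RNA was column-purified, amplified to cDNA by Nugen Ovation and made into Nextera XT libraries. Floors and Poisson intervals cover counting error only, since reads after amplification are not separate molecules. The submitters' processing notes name STAR 2.4.2a, DESeq2 1.26.0 and build GRCm38 without their roles. Counter, annotation and strandedness are not given in the sources, so overlapping genes and near-identical copies are uncertain.

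Symbols matched 42462 of 43432 gene IDs. The test was edgeR 4.0.16 (R 4.3.3) using TMM factors, filterByExpr and robust quasi-likelihood F-tests, with p-values adjusted by Benjamini-Hochberg over all 17172 tested genes at 0.05, with genotype as the only term. Members enter the test with at least about 0.45 CPM in 3 libraries. Every pair of libraries differed beyond sampling noise (chi-square per degree of freedom at least 84.4). Coding sequences were aligned with Biopython 1.88.

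The members, the gene lists and the tests were chosen with earlier results of these data known. Genes were named by rule: the 7 members, the 3 genes with the smallest p of each pathway list, all 3 other Schlafen-named genes, the 3 most alike by r per tested member, and the 2 most abundant markers per cell type list. The markers this named were H2-Aa, Aire, Tcf7, Ptprc, Lyz2, S100a8, Cr2, Ebf1, Rgs5 and Dcn. A gene that the rule named is not reported here. Slfn5os and Gm11427 were added afterwards, with their values known. As alternatives, the fit was repeated with a replicate block, with size factors from DESeq2, with upper-quartile factors, with no count filter, with a stricter filter (50 counts in 3 libraries), in DESeq2 1.42.0 with and without the block, in limma-voom (limma 3.58.1), with each library left out, at an adjusted p of 0.1, and with near-identical copies counted together.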

Additional observations from a re-analysis of the deposited data

How the results depend on the processing

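The count of 0 Schlafen members called held under every alternative except DESeq2 with the replicate block, where it was 1 (Slfn4, which DESeq2 without the block left without a p-value). The count of 0 genes over the whole table became 73 without a filter on low counts, 116 with DESeq2, 1 with the replicate block and 302 with DESeq2 and the block. No paired design is stated, although the source names of libraries that share a number also share an ending whose meaning is not given. Deviations of the libraries that share a number correlated at 0.059 to 0.13, not above 0.1 for every pair, although each library correlated best across genotypes with its own number. Set against the WT library of the same number, Slfn1 and Slfn8 were higher in MUT in 3 of 3, Slfn8 by 31.4 against 31.1 CPM in the libraries numbered 1. Under the replicate block Slfn9 changed sign, to -0.052 in edgeR and -0.085 in DESeq2, and it did so in limma-voom, at -0.60. With each library left out in turn the log2 fold change ran from 1.74 to 4.78 for Slfn1, -0.61 to 1.25 for Slfn2, -4.51 to -1.001 for Slfn4, 0.54 to 1.33 for Slfn5, 0.24 to 1.67 for Slfn8 and -0.33 to 0.79 for Slfn9. The counts of genes and members called were 0 in all of these fits. Slfn1, Slfn4, Slfn5 and Slfn8 kept their sign in all 15 alternatives. DESeq2 size factors, upper-quartile normalization and the stricter filter changed no sign. The median over the genes in the fit moved from -0.01 to 0.15 in DESeq2, 0.16 without the filter and 0.20 in DESeq2 when blocked. Those fits also took in genes that the main filter leaves out, so their medians cover other sets of genes. The cause of these changes was not tested. With 3 libraries per genotype the 95% intervals of the Schlafen fold changes span from 2.38 to 8.44 log2 units, which limits the differences that could be detected.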
